A study of Mus musculus with 4 samples.

Results

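The kinesins and cytokinesis genes described here are 10 mouse genes: the motor proteins Kif11, Kif4, Kif22, Kif2c, Kif20a and Kif23, and the cell division proteins Racgap1, Prc1, Ect2 and Anln. The genes were chosen with earlier results of these data known, and every probe set whose only gene symbol in the platform annotation was one of these 10 was then taken, whatever its signal. This gave 11 probe sets of the 12488 on the array, 2 for Kif20a and 1 for each of the other genes. Liver RNA was measured on Affymetrix MG_U74Av2 arrays, 2 from PEPCK-TAg mice and 2 from wild-type mice. All were male B6SJL hybrids aged 58 to 60 days, kept from weaning, for 4 weeks, on food with 70% carbohydrate and 10% protein. The PEPCK-TAg animals carried the SV40 large T and small t oncoproteins under the promoter of Pck1, the gene of the gluconeogenic enzyme phosphoenolpyruvate carboxykinase, whose promoter is active in hepatocytes. The wild-type animals had no such transgene. The labels call the arrays of a group duplicate measurements and do not say that they came from separate animals, so the spread that the p-values below are measured against may be a technical one. Transgene transcripts were not analysed here.

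Kinesins are ATP-driven motors that move along microtubules or shorten them. Several of them work only in dividing cells, where they build the spindle, position chromosomes and then, with the microtubule bundler Prc1, the centralspindlin proteins and Ect2, mark the place where a contractile ring scaffolded by anillin divides the cell. Most hepatocytes of an adult liver are quiescent, and genes of this kind are transcribed mainly late in the cell cycle. Their promoters are known for a short element, the cell cycle homology region with the core TTTGAA, which the MuvB complex binds: with the pocket proteins RBL1 and RBL2 in resting cells, as a repressor, and with MYBL2 and FOXM1 in dividing cells, as an activator. SV40 large T binds the retinoblastoma family of pocket proteins.

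The promoters of 7 genes are shown because each holds that core downstream of a CCAAT box, the element that the factor NF-Y binds. RefSeq promoter windows of the build GRCm38.p6, 250 bases before the start of transcription and 50 from it on, were given for 9 of the 10 genes, with 11 windows in all since Prc1 and Ect2 had 2 starts each. The stretches below are read 5′ to 3′ along each gene's own strand, 100 bases before the start and 30 from it on, with capitals for matches on either strand to TTTGAA, the NF-Y letters CCAAT or the E2F motif TTTNNCGC. They lie at chr19:37376282-37376411 for Kif11 (plus strand), chrX:100625965-100626094 for Kif4 (plus strand), chr7:127042391-127042520 for Kif22 (minus strand), chr9:61946770-61946899 for Kif23 (minus strand), chr15:99651627-99651756 for Racgap1 (minus strand), chr7:80294351-80294480 for Prc1 (plus strand) and chr3:27153825-27153954 for Ect2 (minus strand).
Kif11: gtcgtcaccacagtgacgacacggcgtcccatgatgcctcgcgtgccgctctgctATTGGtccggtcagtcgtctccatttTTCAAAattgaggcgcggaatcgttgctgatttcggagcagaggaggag
Kif4: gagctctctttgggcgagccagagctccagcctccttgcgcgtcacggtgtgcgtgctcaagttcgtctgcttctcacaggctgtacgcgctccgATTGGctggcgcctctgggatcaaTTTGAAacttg
Kif22: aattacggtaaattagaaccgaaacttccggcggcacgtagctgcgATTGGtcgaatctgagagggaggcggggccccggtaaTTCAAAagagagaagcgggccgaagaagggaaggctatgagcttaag
Kif23: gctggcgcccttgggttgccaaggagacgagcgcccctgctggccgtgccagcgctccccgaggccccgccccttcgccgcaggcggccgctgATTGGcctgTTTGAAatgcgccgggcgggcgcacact
Racgap1: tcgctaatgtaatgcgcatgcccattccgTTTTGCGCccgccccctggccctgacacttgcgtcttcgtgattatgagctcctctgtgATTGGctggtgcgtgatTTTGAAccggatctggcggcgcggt
Prc1: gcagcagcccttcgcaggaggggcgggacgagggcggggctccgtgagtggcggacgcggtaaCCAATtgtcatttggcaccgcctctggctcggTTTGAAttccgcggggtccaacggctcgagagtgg
Ect2: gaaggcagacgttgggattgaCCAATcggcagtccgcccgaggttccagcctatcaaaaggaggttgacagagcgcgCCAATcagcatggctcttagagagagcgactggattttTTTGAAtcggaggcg
The core TTTGAA was present in 11 of 11 windows, against 17.9% of the 32851 mouse promoter windows of that length. CCAAT was present in 9 of 11, in all the windows but those of Kif2c and Anln, against 37.4%. The 2 windows of Prc1 overlap, as do those of Ect2, so the same matches are counted again. By gene, the core was present in 9 of 9 and CCAAT in 7 of 9. The pattern TTTNNCGC, taken here for the E2F motif with N as any base, was present in 1 window, against 5.17% of all windows. That window was of Racgap1, with the letters TTTTGCGC. No match to one motif overlapped a match to another. In the printed stretches the gap between a CCAAT box and the TTTGAA core downstream of it was 21 bases in Kif11, 19 in Kif4, 32 in Kif22, 4 in Kif23, 12 in Racgap1, 27 in Prc1 and 33 in Ect2. The map of the motifs gives the 9 genes on a common scale. A match of letters is a description of the sequence and does not show binding.

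**Figure D1:**
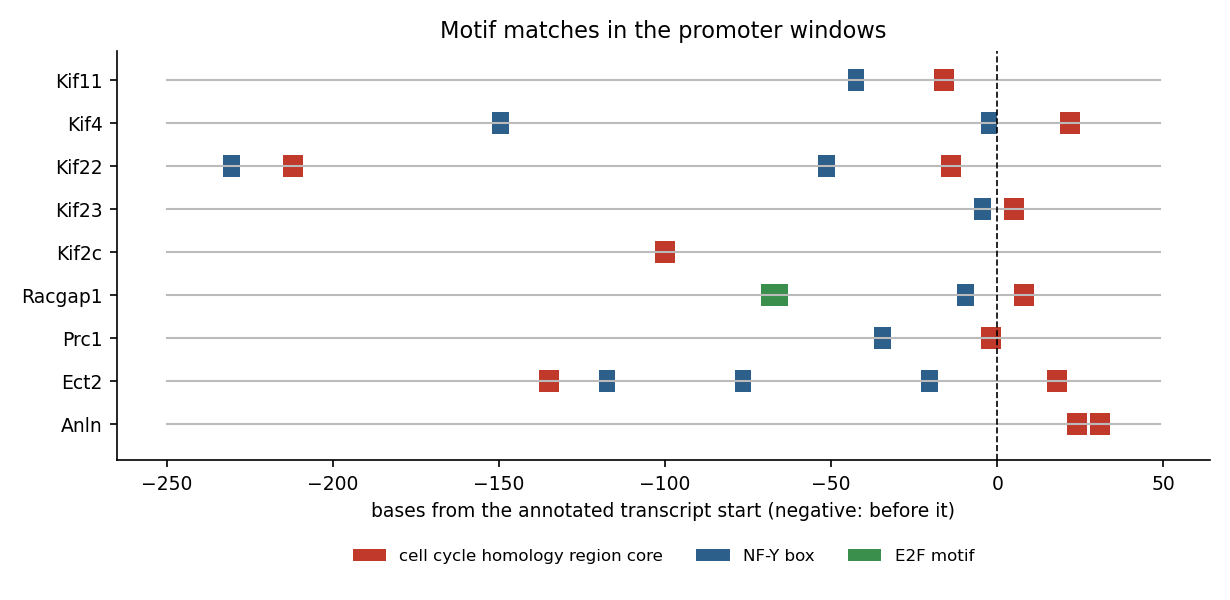
Positions of matches on either strand to the cell cycle homology region core, the NF-Y box and the E2F motif in the RefSeq promoter windows of 9 genes, in bases from the start of transcription (x axis), with 1 line per gene and the first window where a gene has 2. Every line carries at least 1 mark of the core, the Kif2c and Anln lines carry no NF-Y mark, and the E2F mark is on the Racgap1 line.

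In PEPCK-TAg livers 9 of the 10 genes rose, by 3.85 to 19.8 times between group mean signals, and none fell; Kif11, the 10th gene, was too dim over the 4 arrays for the main test and was also brighter in PEPCK-TAg. Signals are the array software's brightness values, scaled to 1 common level, and changes are differences of log2(signal + 13), PEPCK-TAg minus wild type, which understates the change of dim probe sets. The largest ratios rest on dim wild-type readings, with wild-type means of 13.25 to 19.1 for Kif4, Kif20a (160501_at), Racgap1 and Anln; without detection calls such readings cannot be told from background, so the size of these ratios is uncertain. A probe set was tested with limma where its mean log2 value over the 4 arrays reached the 40th percentile of all probe sets that are no controls, which corresponds to a signal of 48.1, and was called where its Benjamini-Hochberg adjusted p was under 0.05. All 10 tested member probe sets were called higher, with changes of 1.69 to 3.49 and adjusted p-values of 0.00139 to 0.00824, against 477 probe sets or 6.40% of the 7453 tested; 229 were called lower, and after median centring, which moves the median of all changes to -0.14, 403 were called higher and 409 lower. The 477 dropped to 316 without PEPCK-TAg replicate 1 and to 288 without PEPCK-TAg replicate 2, and the 229 to 110 to 143 without any 1 of the 4 arrays; every member probe set that could be tested without 1 array was still called higher. By gene, 9 of 9 were called higher, against 6.83% of 5650 genes; 3.01% of genes were called lower. Since the genes were chosen with such results known, these shares are a description. In 6 of the 10 tested probe sets the wild-type mean was below a signal of 48.1, so these passed the filter through their PEPCK-TAg signal. With no filter all 11 member probe sets, Kif11 included, were called higher at adjusted p-values up to 0.0319, against 2.71% of 12422 probe sets. In every one of the 11 the lower PEPCK-TAg reading exceeded the higher wild-type reading, which held for 30.2% of tested probe sets. In whole liver RNA, a larger share of cells with these transcripts and more transcript per cell cannot be told apart.

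**Figure D2:**
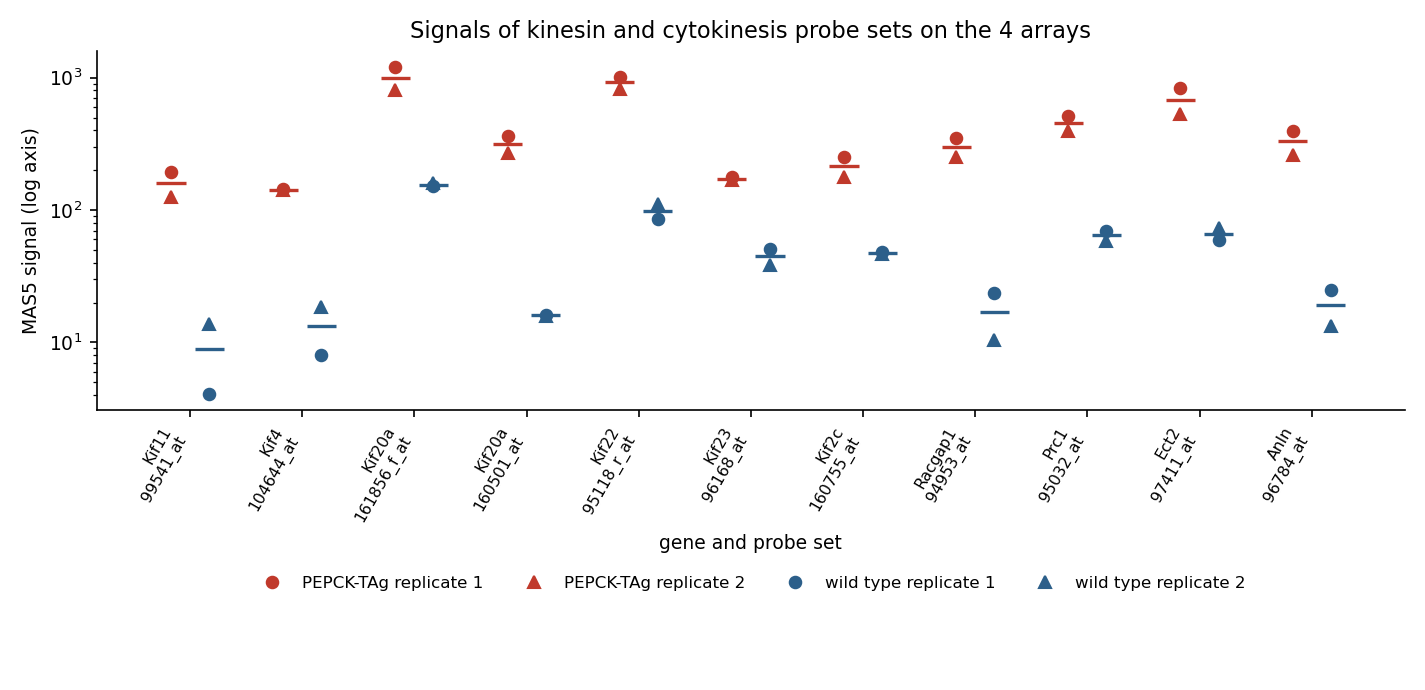
Signal of each of the 11 member probe sets on each array, on a log axis, with PEPCK-TAg arrays in red, wild-type arrays in blue, replicate 1 as circles, replicate 2 as triangles and group means as bars. The points of the 2 groups are apart for every probe set, with PEPCK-TAg signals of 125.3 to 1202.2 and wild-type signals of 4.1 to 159.1.

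Kif11 (99541_at) is the motor that crosslinks and slides antiparallel microtubules and so pushes the spindle poles apart. Its signal was 193.6 and 125.3 in PEPCK-TAg livers, against 4.1 and 13.7 in wild-type livers. The wild-type readings were near the bottom of the members' range, and the lower PEPCK-TAg reading was 9.15 times the higher wild-type reading. The change was 2.98 on the log2 scale. Its mean log2 value of 5.91 lay just under the filter at 5.93, while that of Kif4, at 5.98, lay just above it. With no filter the Kif11 change had a standard error of 0.37 and an adjusted p of 0.0224 (limma).

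Kif4 and Kif22 are chromokinesins, motors that bind chromosome arms; Kif4 also works with Prc1 on the midzone of the spindle. Kif4 (104644_at) read 144 and 141.2 in PEPCK-TAg livers, against 8 and 18.5 in wild-type livers. Its PEPCK-TAg readings were nearly alike, while its dim wild-type readings were spread, and it rose by 2.60 ± 0.32 (SE; adjusted p = 0.00615). Kif22 (95118_r_at) read 1016.6 and 822.5 in PEPCK-TAg livers, against 85.2 and 110.8 in wild-type livers. Kif22 thus read above the filter signal of 48.1 on each array, and it rose by 3.07 ± 0.20 (adjusted p = 0.00139). This was the smallest standard error of the tested member probe sets. Its name marks a probe set for which the maker's rules of probe choice were relaxed, and no other Kif22 probe set was available as a check.

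Kif2c does not walk along microtubules but takes them apart at their ends, and corrects faulty attachments at centromeres. Its probe set (160755_at) read 252.8 and 177 in PEPCK-TAg livers, against 48.5 and 46.6 in wild-type livers. The wild-type arrays differed little and the groups lay apart, with a rise of 1.89 ± 0.24 (adjusted p = 0.00702).

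Kif20a brings the chromosomal passenger complex, the kinase Aurkb with its partners, to the central spindle at anaphase. Of its 2 probe sets, 160501_at read 361.8 and 270.7 in PEPCK-TAg livers, against 16.2 and 15.8 in wild-type livers. The second, 161856_f_at, read 1202.2 and 801.7 in PEPCK-TAg livers, against 152.5 and 159.1 in wild-type livers. Both rose, by 3.49 ± 0.24 (adjusted p = 0.00139) and 2.56 ± 0.22 (adjusted p = 0.00186), with 95% intervals of 2.91 to 4.07 and 2.03 to 3.09 that overlap. The ratio of mean signals was 19.8 for the first and 6.43 for the second. The second has probes that may match related sequences, as the letter f in its name marks, and their part in its higher wild-type readings was not tested.

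Kif23 and Racgap1 form centralspindlin, a complex of a kinesin with its partner protein, which gathers on the central spindle and recruits Ect2. Kif23 (96168_at) read 176.1 and 167.2 in PEPCK-TAg livers, against 50.5 and 38.7 in wild-type livers. Racgap1 (94953_at) read 349.4 and 253.4 in PEPCK-TAg livers, against 23.5 and 10.5 in wild-type livers. Neither gene's groups overlapped. Kif23 rose by 1.69 ± 0.23 (adjusted p = 0.00824), the smallest change among the 11 probe sets, and Racgap1 by 3.41 ± 0.30 (adjusted p = 0.00192). The 95% interval of Kif23, 1.15 to 2.23, lay below that of Racgap1, 2.68 to 4.13, although the 2 proteins act in 1 complex. The difference between the probe sets was not tested.

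Prc1 bundles the antiparallel microtubules of the central spindle. It (95032_at) read 514.7 and 394.4 in PEPCK-TAg livers, against 69.7 and 58.7 in wild-type livers. The groups lay far apart for the spread within them, and Prc1 rose by 2.59 ± 0.21 (adjusted p = 0.00179).

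Ect2 is an exchange factor that acts at the equator of the dividing cell to start the ring, and Anln encodes anillin, the scaffold that ties actin, myosin and septins together in it. Ect2 (97411_at) read 831.8 and 527.9 in PEPCK-TAg livers, against 59.2 and 72.6 in wild-type livers. Anln (96784_at) read 396.2 and 262.6 in PEPCK-TAg livers, against 24.8 and 13.4 in wild-type livers. In both genes the lower PEPCK-TAg array stood well above the higher wild-type array. Ect2 rose by 3.10 ± 0.25 (adjusted p = 0.00179) and Anln by 3.41 ± 0.30 (adjusted p = 0.00186).

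**Figure D3:**
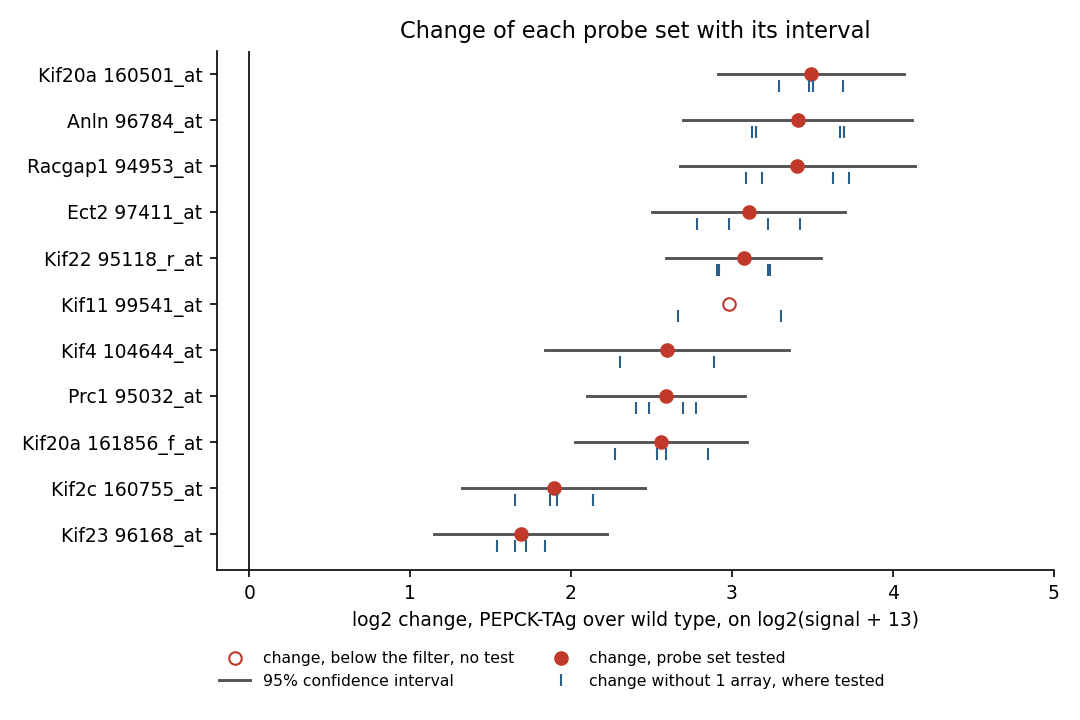
Log2 change, PEPCK-TAg minus wild type, of each member probe set, with the 95% interval from limma where it was tested; Kif11 was below the filter and has an open point without an interval, and ticks give the change without 1 array. Points run from 1.69 for Kif23 to 3.49 for Kif20a, and no interval reaches 0.

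The PEPCK-TAg arrays differed from each other in 1 direction over these genes. Replicate 1 read higher than replicate 2 in 11 of 11 member probe sets, by a median of 0.44 on the log2 scale. Over all tested probe sets replicate 1 was the higher in 50.6%. In wild type, replicate 1 was the higher in 6 of 11 member probe sets. Among 6 marker genes of dividing cells replicate 1 was the higher in 5 in PEPCK-TAg and in 4 in wild type. Among 15 hepatocyte markers it was the higher in 11 in PEPCK-TAg and in 11 in wild type, and among 11 macrophage markers in 1 in PEPCK-TAg and in 1 in wild type. The count of 11 member probe sets stayed at 11 after quantile normalization, median centring and cyclic loess, where the share over all tested probe sets was 52.8%, 59.1% and 50.5%. In wild type the members' count became 4 of 11 under each of these. The hepatocyte counts became 8, 12 and 8 in PEPCK-TAg and 6, 10 and 8 in wild type. The counts for dividing cells became 5, 6 and 5 in PEPCK-TAg and 2, 1 and 3 in wild type. The macrophage counts stayed at 1.

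Genes that act beside the members were listed by role, and each gene was represented by its brightest probe set. Of 11 other kinesins of mitosis, 3 were on the array and none passed the filter. Kif2a, a relative of Kif2c, read 56.4 and 64.8 in PEPCK-TAg livers, against 39.7 and 34 in wild-type livers. Kifc1, a minus-end motor that focuses spindle poles, read 34.2 and 28.6 in PEPCK-TAg livers, against 27.6 and 24.4 in wild-type livers. Cenpe, the kinetochore motor, read 21.4 and 16.5 in PEPCK-TAg livers, against 3.5 and 6.4 in wild-type livers. All 3 had dim readings and were not tested.

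Of 30 kinesins and light chains of intracellular transport, which carry cargo in resting cells too, 16 were on the array and 7 were tested. None was called by limma and none had an unadjusted p under 0.05. Their changes ran between -0.26 and 0.52, with a median of -0.09, against a median of 0.015 over all tested genes. Kifap3, which links the kinesin-2 motor to its cargo, had the smallest p of the 7 and read 65.5 and 95.5 in PEPCK-TAg livers, against 52 and 50.4 in wild-type livers, with a change of 0.52 ± 0.28 (adjusted p = 0.284). Kif1c, a carrier of vesicles, read 295 and 248.9 in PEPCK-TAg livers, against 324.6 and 327.5 in wild-type livers, with a change of -0.26 ± 0.17 (adjusted p = 0.403). Kif5b, the ubiquitous conventional kinesin heavy chain, read 266.1 and 255.7 in PEPCK-TAg livers, against 227.4 and 225.7 in wild-type livers, with a change of 0.19 ± 0.16 (adjusted p = 0.511).

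Of 19 genes of the chromosomal passenger complex and of regulators of cytokinesis, 12 were on the array and 8 were tested: 4 were called higher, none lower, with a median change of 0.54 over those tested and 0.78 over the 12. Of the 4, 1 (Birc5) had a wild-type mean below the filter signal and passed the filter through its PEPCK-TAg readings. Birc5, the survivin subunit, read 260.4 and 187.1 in PEPCK-TAg livers, against 21.8 and 5.6 in wild-type livers, and rose by 3.20 ± 0.37 (adjusted p = 0.00505). Cdca8, the borealin subunit, rose by 1.37 ± 0.21 (adjusted p = 0.0125). Incenp, the scaffold of the complex, rose by 1.21 ± 0.24 (adjusted p = 0.0275) on 93758_at, but its other probe set, 104468_at, changed by -0.10 and was not called. Plk1, the kinase that prepares the docking of Ect2 on centralspindlin, rose by 0.98 ± 0.19 (adjusted p = 0.0277) on 161292_f_at. Of its other probe sets, 101350_g_at rose by 1.09 ± 0.18 (adjusted p = 0.0159). The last, 93099_f_at, was below the filter, with 127.6 and 122.4 in PEPCK-TAg livers, against 6.4 and 20.9 in wild-type livers. The alternative settings given for Plk1 are those of 161292_f_at. Aurkb, the kinase of the complex, named after its values were seen, was below the filter with readings of 212 and 35.8 in PEPCK-TAg livers, against 12.2 and 12.7 in wild-type livers. The PEPCK-TAg arrays thus differed widely for Aurkb, with replicate 1 the higher as for the members. The count of 4 was smaller without PEPCK-TAg replicate 1, without PEPCK-TAg replicate 2 and without wild-type replicate 2. A smaller count is not always a lost call, since a gene can also fall below the filter. Birc5 kept its call in each of the 10 alternative settings in which it was tested. Incenp lost its call without PEPCK-TAg replicate 1 or either wild-type array (adjusted p = 0.0506 to 0.145), and Plk1 without PEPCK-TAg replicate 1 or wild-type replicate 2 (adjusted p = 0.107 and 0.0784). With no filter, Incenp and Plk1 were not called (adjusted p = 0.0734 and 0.0584).

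The list of contractile ring myosins and septins held 27 symbols, with each septin under both an old and a new name. Of its genes, 15 were on the array and 10 were tested. Only Myh9, a heavy chain of nonmuscle myosin found in most cells, was called: it read 1148.5 and 1362.7 in PEPCK-TAg livers, against 596.2 and 629.1 in wild-type livers, and rose by 1.02 ± 0.16 (adjusted p = 0.0149). The other Myh9 probe set, 102108_f_at, changed by 1.32 ± 0.34 and was not called (adjusted p = 0.0610). The list's median change was 0.11. Without PEPCK-TAg replicate 2, or without wild-type replicate 1, Myh9 was not called (adjusted p = 0.0565 and 0.0511). Of 19 genes of the abscission machinery, the ESCRT and midbody proteins that cut the last bridge between daughter cells, 13 were on the array and 11 were tested. None was called by limma, 3 had an unadjusted p under 0.05, and the median change was 0.05. The closest to the threshold was Chmp4b, an ESCRT-III filament subunit, which read 1512.3 and 1799.1 in PEPCK-TAg livers, against 1024.9 and 1114.7 in wild-type livers (change 0.62 ± 0.16, adjusted p = 0.0612).

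Of 22 spindle microtubule proteins, 14 were on the array and 12 were tested: 5 were called higher, none lower, with a median change of 0.84 over those tested and over the 14. Of the 5, 2 (Ckap2 and Nusap1) had wild-type means below the filter signal and passed the filter through their PEPCK-TAg readings. Ckap2, a spindle-associated microtubule protein, read 492 and 521.2 in PEPCK-TAg livers, against 12.3 and 9.7 in wild-type livers, and rose by 4.44 ± 0.21 (adjusted p = 0.000573). Stmn1, which destabilises microtubules, rose by 3.67 ± 0.30 (adjusted p = 0.00179), and Nusap1, which bundles spindle microtubules, by 3.33 ± 0.36 (adjusted p = 0.00382). The other Stmn1 probe set, 97910_at, was dim and lower, with 6.1 and 7.6 in PEPCK-TAg livers, against 13.8 and 10 in wild-type livers. The other Nusap1 probe set, 102115_r_at, read 67.7 and 31.4 in PEPCK-TAg livers, against 28.2 and 4.5 in wild-type livers. Both were below the filter. Tubb5, a beta-tubulin, rose by 1.11 ± 0.14 (adjusted p = 0.00716) on 94788_f_at, and Ckap5, a microtubule polymerase, by 1.06 ± 0.20 (adjusted p = 0.0234). The other Tubb5 probe set, 94789_r_at, rose by 0.99 ± 0.16 (adjusted p = 0.0151). As the letters f and r mark, 94788_f_at may match related sequences, and 94789_r_at had relaxed rules of probe choice. Without PEPCK-TAg replicate 1 the count was 3, and Ckap5 was not called without either PEPCK-TAg array or without wild-type replicate 1 (adjusted p = 0.0635 to 0.103), nor with no filter (adjusted p = 0.0629).

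**Figure D4:**
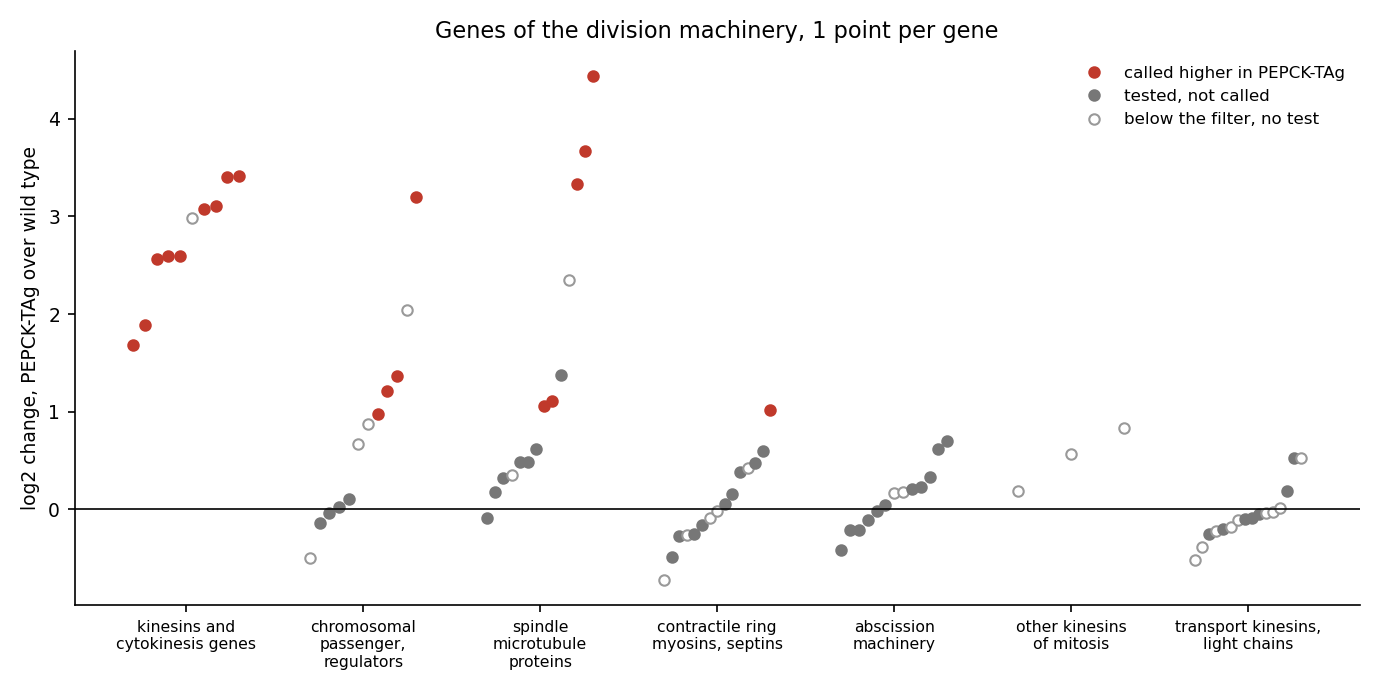
Log2 change, PEPCK-TAg minus wild type, of each gene on the array in the member list and in the companion lists, with genes called by limma in red, genes not called in grey and genes below the filter as open circles. Changes of the 7 tested transport kinesins lie between -0.26 and 0.52, while the tested members lie at 1.69 and above.

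Markers of the cell types a liver holds were read on the same arrays. Alb, the main hepatocyte product, read 13339.3 and 12445.7 in PEPCK-TAg livers, against 16722.8 and 14429.7 in wild-type livers, high as in liver (change -0.27, not called, and 0.11 after cyclic loess). Summed over 15 hepatocyte markers, the signal was 86833 and 78376.4 in PEPCK-TAg livers, against 115295.2 and 104159.4 in wild-type livers. In the main setting their median change was -0.38, and 8 were lower and none higher at an unadjusted p under 0.05 (limma). Of these 15, 1 was called lower, the apolipoprotein gene Apoa2 (change -0.74), and its call was lost without either PEPCK-TAg array or without wild-type replicate 1 (adjusted p = 0.0516 to 0.0814), with no filter (0.0584), without the trend (0.0586) and after quantile normalization (0.0668, change -0.42); none was called higher. All 6 markers of dividing cells were called higher, 3 of them (Mki67, Cdk1 and Top2a) with wild-type means below the filter signal, with sums of 6838.6 and 5442.4 in PEPCK-TAg livers, against 786.4 and 743.2 in wild-type livers. Mki67, the proliferation antigen, read 671.8 and 431 in PEPCK-TAg livers, against 5.8 and 8.7 in wild-type livers. Of 11 macrophage markers 4 were called higher, Mpeg1, C1qb, Cd5l and Clec4f, with sums of 10607.7 and 13942.7 in PEPCK-TAg livers, against 3224.4 and 5999.2 in wild-type livers. Without PEPCK-TAg replicate 2, C1qb, Cd5l and Clec4f were not called (adjusted p = 0.0543 to 0.0790), and without wild-type replicate 1, C1qb and Clec4f were not (adjusted p = 0.0538 and 0.0962). With no filter the same 3 were not called (adjusted p = 0.0598 to 0.0770), and without the trend Cd5l and Clec4f were not (adjusted p = 0.0588 and 0.0672), so that Mpeg1 alone kept its call in all of these. In red cell precursors 1 of 7 tested markers, Car2, was called higher, with sums of 4197.3 and 3691.9 in PEPCK-TAg livers, against 3942.5 and 4822.6 in wild-type livers; Alas2, the erythroid enzyme of heme synthesis, read 91 and 157.4 in PEPCK-TAg livers, against 250.2 and 1072.7 in wild-type livers (change -2.01 ± 0.62, adjusted p = 0.0968). Car2 is expressed in other cells too. In stellate cells 1 of 7 tested markers, Col3a1, was called higher, with sums of 3551.4 and 4572.8 in PEPCK-TAg livers, against 3613.1 and 3224.6 in wild-type livers. No tested marker of T and natural killer cells (1), B and plasma cells (5), neutrophils (2), endothelial cells (10) or bile duct cells (1) was called. Neutrophil markers summed to 540.7 and 511.9 in PEPCK-TAg livers, against 327.4 and 242.6 in wild-type livers. Camp, a neutrophil granule gene, had a change of 1.28 ± 0.35 (adjusted p = 0.0709). Elane, the other tested neutrophil marker, had a change of -0.04 and was not called (adjusted p = 0.933). Of the 5 below the filter, Mpo was lower, with 5.4 and 11.7 in PEPCK-TAg livers, against 36.4 and 21.4 in wild-type livers. Ltf and Ngp, also below it, changed by 0.50 and 0.24. S100a8 and S100a9, named after their values were seen, were below the filter: S100a8 read 105.2 and 89.9 in PEPCK-TAg livers, against 20 and 16.6 in wild-type livers, and S100a9 read 78 and 85.8 in PEPCK-TAg livers, against 12.6 and 26.3 in wild-type livers. Endothelial markers summed to 1815.2 and 2646.5 in PEPCK-TAg livers, against 2946.1 and 2966.4 in wild-type livers, with a median change of -0.52 and 3 of 10 lower at an unadjusted p under 0.05. No marker of these lists was listed at 0 on any array. The part of macrophages, neutrophils or other cells in the members' rise was not tested.

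Depth cannot be stated for arrays, and their number, 2 a group, limits the precision. The trimmed mean signal was 250.2 on each array. Correlation of log2 signals over tested probe sets was 0.966 between the PEPCK-TAg arrays and 0.965 between the wild-type arrays, and 0.896 to 0.914 between groups. Actin and Gapdh have probe sets at both ends of the transcript, and the 3′ over 5′ ratio, a sign of RNA quality, was 5.06 and 4.79 for actin in PEPCK-TAg livers, against 4.87 and 4.06 in wild-type livers, and 3.36 and 2.95 for Gapdh in PEPCK-TAg livers, against 3.67 and 3.80 in wild-type livers. Each array had its own fluidics module, so module and array cannot be told apart.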

How the data were processed

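RNA from 4 liver samples was hybridised to Affymetrix MG_U74Av2 arrays. The deposited intensity values are MAS5 signals, per the submitters' processing notes; the version is not given in the sources used here. Of 12488 probe sets 66 controls were left out; 10833 had 1 gene symbol in the platform annotation, 396 several and 1193 none, and 10817 of those with 1 symbol matched a current RefSeq gene. Probe sets with several symbols were not assigned to a gene.

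An offset of 13 was added to each signal before log2; it is 5% of the arrays' mean after trimming 2% at each end. PEPCK-TAg was compared with wild type, 2 arrays each, in limma 3.58.1 (R 4.3.3) with a mean-variance trend, two-sided, over the 7453 probe sets whose mean log2 value reached the 40th percentile; p-values were adjusted by Benjamini-Hochberg over all of them and called under 0.05. Residual degrees of freedom were 2, with 4.61 more from the prior. A single-gene exact permutation test of 2 against 2 cannot go below p = 0.333 and was not used. The fit was tested on simulated data. The layout of each scanned array was read from the deposited experiment files, in which the authors' instrument settings are other values than expression.

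The members and the lists of companion and marker genes were chosen with earlier results of these data known. Named are every member probe set, the called genes of each companion list with up to 4 more of smallest p, and up to 4 of each marker list, with Alb and Mki67. Outside this rule are Kif2a, Kifc1 and Cenpe, the untested genes that make up their list. Also outside it are Aurkb, Top2a, S100a8, S100a9, Mpo, Ltf and Ngp, named after their values were seen. Alternatives were other offsets, filters, normalizations, no trend, the replicate number as a block and leaving out each array.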

Additional observations from a re-analysis of the deposited data

How the results depend on the processing

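All member probe sets that passed the filter under an alternative were called higher under it, in each of the 13 alternatives. The count of 10 became 4 with the filter at the 60th percentile, where only 4 passed it, and was 9 to 11 when 1 array was left out. The members' median change of 2.98 was 3.32 with an offset of 1, 2.33 with an offset of 20% of the trimmed mean, and 2.69 to 3.22 without 1 array. The count of all probe sets called higher, 477, was 288 to 420 without 1 array. The count called lower, 229, was 105 with no filter, 409 with median centring, 117 without the trend and 110 to 143 without 1 array. Of the passenger complex genes, 4 in the main setting, 2 were called with no filter, 2 with the filter at the 60th percentile and 1 to 3 without 1 array. Of the spindle microtubule proteins, 5 in the main setting, 3 were called with the filter at the 60th percentile and 3 to 5 without 1 array. Of the contractile ring genes, 1 in the main setting, 2 were called after cyclic loess and 0 to 1 without 1 array; of the abscission genes, 0 in the main setting, 1 was called after cyclic loess. The change of Alb was 0.11 after cyclic loess. Incenp, Plk1 and Ckap5 were not called with no filter (adjusted p = 0.0734, 0.0584 and 0.0629, limma), nor was Incenp after quantile normalization (0.0504). The causes of these moves were not tested, other than the smaller number of genes passing a stricter filter. Genes also fell below the filter in other alternatives. Birc5 was called in all 10 alternatives in which it was tested, and Nusap1 in all 11. In the remaining alternatives they were below the filter and so were not counted.

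The replicate numbers are shared between the groups, but with 2 pairs they do not establish a pairing (correlation of the deviations of same-numbered arrays 0.18). With the replicate block, 10 member probe sets were called higher, as were 696 probe sets in all, with 444 lower, 8 spindle microtubule proteins, 2 contractile ring genes and 1 abscission gene. With a lone array in a group, that array is assumed to vary like the other group's. Signals near the dimmest of the array limit the wild-type readings of Kif11, Kif4, Kif20a (160501_at), Racgap1 and Anln.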
